A study of Mus musculus with 4 samples.

Results

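The genes described here are 28 lysosomal genes of the mouse: hydrolases, their activators and partners, and proteins of the lysosomal membrane. They were taken by name from a list, with no threshold on a measured value, and all 28 were found among the 32285 genes of the count tables. The study measured single-cell RNA in livers of male offspring from 2 maternal groups, control (Ctrl) and intrauterine hyperglycemia (IHG), and addressed hepatic inflammatory features of IHG offspring. Fetal livers were taken by caesarean section at E18.5, late in gestation, and adult livers at 8 weeks after perfusion through the portal vein. Each of the 4 groups is 1 library of cells pooled from 3 pregnant mice (fetal) or 3 animals (adult), dissociated with enzymes, freed of erythrocytes by lysis and run on the 10x 3′ v2 chemistry. The mouse strain and the way hyperglycemia was brought about were not given in the sources used here. With 1 library per group there is no replicate check, so no test between groups was possible, and every interval below covers counting error only.

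Lysosomes are acidic organelles that break down proteins, sugars, lipids and whole cells taken up from outside or delivered by autophagy. Their soluble enzymes are made in the endoplasmic reticulum and carried to the lysosome, and heavily glycosylated membrane proteins line its inner face. Macrophages, among them the Kupffer cells of the liver, clear dying cells and old erythrocytes and hold many lysosomes, whereas neutrophils pack hydrolases into granules during their development. Many lysosomal genes carry an E-box in the promoter, to which TFEB, TFE3 and MITF, the MiT transcription factors, are known to bind.

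The promoter E-boxes are shown first because they are the regulatory sequence that the listed genes are best known to share. RefSeq promoter entries of the GRCm38.p6 build were found for 24 of the 28 genes, 27 promoters in all. The letters CACGTG, which read the same on both strands, occurred within the 250 bases upstream of the start in 8 of the 27 promoters (29.6%), those of Ctsa, Ctsd, Ctsl, Gaa, Gla, Glb1, Lamp1 and Lgmn, against 6.02% of all 32851 promoters. The longer palindrome TCACGTGA, which contains that core, occurred in 3 of the 27 (11.1%), against 0.785% of all promoters. In the stretches below the capitals mark the palindrome where the whole of it is present and the core alone elsewhere, and each is read 5′ to 3′ on the strand of the gene. They are from Gla at chrX:134601177-134601249 (minus strand), with palindromes beginning 227 and 194 bases before the start, from Ctsd at chr7:142387903-142387942 (minus), from Ctsa at chr2:164833744-164833772 (plus), from Lamp1 at chr8:13159083-13159160 (plus), with 4 cores, and from Ctsl at chr13:64370734-64370770 (minus).
Gla: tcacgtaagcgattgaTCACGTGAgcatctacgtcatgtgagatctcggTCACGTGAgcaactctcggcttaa
Ctsd: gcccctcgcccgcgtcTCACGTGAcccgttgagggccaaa
Ctsa: aacaatgagcaaactgTCACGTGAtgcag
Lamp1: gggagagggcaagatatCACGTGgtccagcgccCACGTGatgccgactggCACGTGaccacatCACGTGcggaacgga
Ctsl: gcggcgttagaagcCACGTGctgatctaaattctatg
The start is that of the RefSeq entry. The sites shown for Ctsa, Ctsd and Ctsl, and that of Lgmn, lie inside the gene spans given below. Ctsd also held a core 245 bases before the start, which is not shown. A match is a description of the letters, and binding was not measured in these libraries.

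In the order fetal Ctrl and IHG, then adult Ctrl and IHG, the libraries held 8500, 8739, 5245 and 6851 cell barcodes with median depths of 6645, 9116, 2558 and 2235 unique molecular identifiers (UMIs), the counted RNA molecules. After filters 7573, 7922, 4954 and 6457 cells remained. Pairs of libraries shared 8 to 26 barcodes, at most 0.380%. Haemoglobin took 35.4% of UMIs in fetal Ctrl and 20.4% in fetal IHG, against at most 0.0110% in the adult libraries. Cell classes are clusters named "X-like" from marker genes, none of which is among the 28 genes, and the 28 genes took no part in the clustering. The 28 genes were detected in every library and made up 0.0892%, 0.154%, 0.247% and 0.218% of UMIs in the same order.

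Of the fetal classes, macrophage-like and monocyte-like cells gave the largest shares of their UMIs to these genes. Fetal macrophage-like cells were led by C1qb, C1qc, C1qa, Hmox1 and Marco, with all 13 macrophage markers detected. They gave 1.67% of their UMIs to the 28 genes in IHG (346 cells, exact Poisson 95% interval 1.65 to 1.68%). The 6 such cells of fetal Ctrl gave 2.11% (1.89 to 2.35%). Fetal monocyte-like cells came next among the myeloid classes, with 0.628% in Ctrl and 0.553% in IHG. Fetal neutrophil-like cells gave 0.147% and 0.162%, close to the 0.09998% and 0.120% of B-like cells, and erythroid-like cells gave 0.0439% and 0.0484%. In the adult libraries plasmacytoid dendritic-like cells gave 1.04% (26 cells, Ctrl) and 0.974% (21 cells, IHG), monocyte-like cells 0.686% and 0.802%, stellate or fibroblast-like cells 0.720% and 0.638%, and neutrophil-like cells 0.568% and 0.489%. Adult B-like, T-like and NK or innate lymphoid-like cells lay between 0.121% and 0.167%.

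Some of these classes held more than 1 kind of cell. A finer clustering, at a resolution chosen as an alternative, divided the fetal hepatocyte-like class into hepatocyte-like (104 Ctrl, 104 IHG) and megakaryocyte-like cells (53 and 174), which held 36.8% of its UMIs in Ctrl and 56.3% in IHG. It divided the fetal endothelial-like class into endothelial-like (45 and 143) and stellate or fibroblast-like cells (16 and 23). Of the fetal monocyte-like cells 29 and 56 became dendritic-like, and of the fetal neutrophil-like cells 58 and 161 became myeloid progenitor-like. The finer clustering also named fetal plasmacytoid dendritic-like cells (28 and 26), in which the 28 genes took 0.554% and 0.644% of UMIs, close to the 0.655% and 0.566% of the finer monocyte-like cells.

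**Figure D1:**
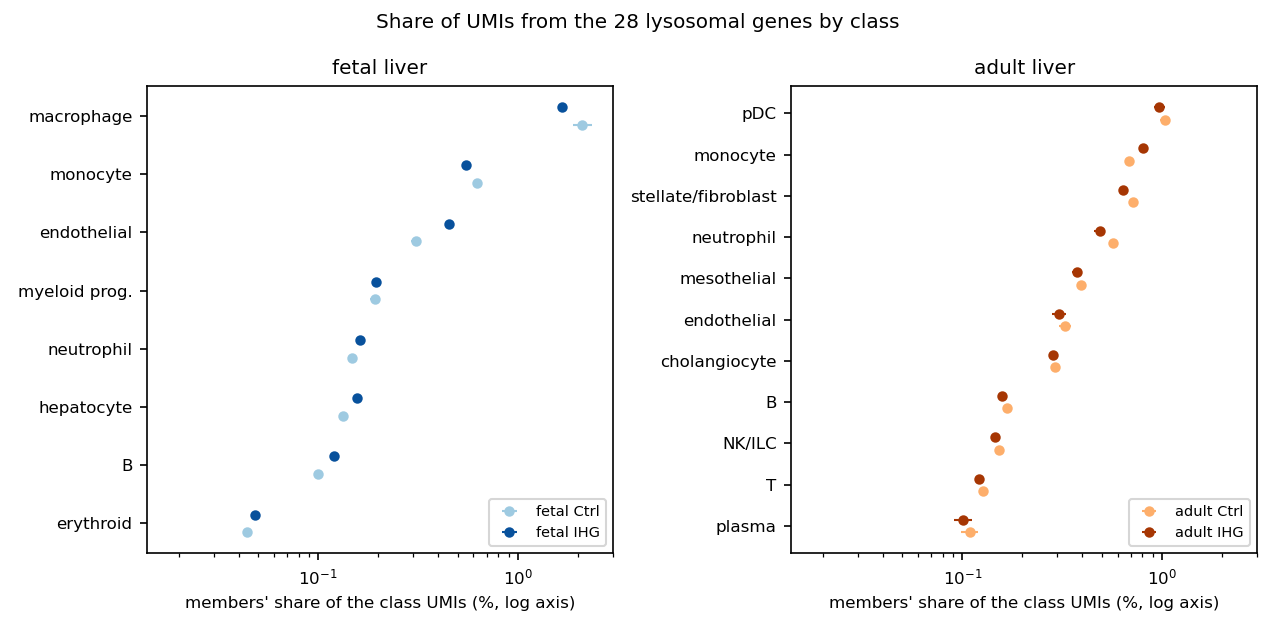
Share of a class's UMIs that came from the 28 lysosomal genes (x axis, percent, log axis) in each fetal (left) and adult (right) class. Ctrl is in the light and IHG in the dark colour, and bars are exact Poisson 95% intervals for counting error. Fetal macrophage-like cells lie furthest right at 1.67% (IHG) and 2.11% (Ctrl, 6 cells), and erythroid-like cells furthest left among fetal classes at 0.0439% and 0.0484%.

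Macrophages could be described at the fetal age only. Of the 4954 adult Ctrl and 6457 adult IHG cells, 0 held UMIs of at least 2 of the 5 Kupffer markers Clec4f, Vsig4, Timd4, Cd5l and Marco, which allows shares of up to 0.0606% and 0.0465%. In the fetal libraries 5 cells (0.0660%, Ctrl) and 330 cells (4.17%, IHG) did. In adult monocyte-like cells Clec4f, Vsig4, Cd5l and Marco were at 0, while the 13 macrophage markers together, with Hmox1 and the C1q genes among them, summed to 676 CPM (Ctrl, 9 with a UMI) and 765 CPM (IHG, 7 with a UMI). The fetal monocyte-like cells summed to 82.9 and 175 CPM and the fetal macrophage-like cells to 27446 and 26542 CPM. The adult class was named from its monocyte markers and is not described as macrophages here.

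In fetal IHG macrophage-like cells the cathepsins stood out first. Levels are given as CPM, the UMIs of a gene per 1000000 UMIs of the class in that library. Because the chemistry counts the 3′ end of transcripts, levels are compared between cells for one gene and not ranked between genes. Ctsb (chr14:63122462-63145923, plus strand, mm10), the cysteine protease cathepsin B, stood at 3606 CPM from 6779 UMIs, and the next class, endothelial-like cells, stood at 396 CPM. Ctss (chr3:95526786-95556403, plus), cathepsin S, which trims the invariant chain of MHC class II, stood at 952 CPM against 367 in monocyte-like and 2.39 in neutrophil-like cells. Ctsz (cathepsin Z) reached 660 CPM and Ctsh (cathepsin H) 583 CPM. Ctsl (chr13:64359337-64370890, minus), cathepsin L, was the exception among them, with 471 CPM in macrophage-like and 1067 CPM in endothelial-like cells.

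The other proteases followed the macrophage pattern. Ctsd (chr7:142375911-142388038, minus), the aspartic protease cathepsin D, stood at 1640 CPM in fetal IHG macrophage-like cells against 271 in endothelial-like cells. Lgmn (chr12:102394084-102439813, minus), legumain, which cleaves after asparagine and processes cathepsins, stood at 1138 CPM against 213 in endothelial-like, 23.4 in monocyte-like and 1.62 in neutrophil-like cells. Ctsa (chr2:164832873-164841032, plus), the carboxypeptidase that protects beta-galactosidase and neuraminidase, was at 434 CPM, and Tpp1, tripeptidyl peptidase, at 181 CPM.

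Among glycosidases, Man2b1 (alpha-mannosidase) was at 315 CPM and Hexa (a hexosaminidase subunit) at 302 CPM in these cells, with Neu1 (neuraminidase) at 83.0, Glb1 (beta-galactosidase) at 54.8, Gla (alpha-galactosidase A) at 44.7 and Gaa (acid alpha-glucosidase) at 37.8 CPM. Of the lipid-handling genes, Psap (chr10:60277627-60302597, plus), the precursor of the saposins that help lipid hydrolases, was at 1059 CPM and Npc2, which hands cholesterol to Npc1 for export, at 1005 CPM. Both were nearly as high in monocyte-like cells, at 882 and 906 CPM. Lipa (acid lipase) was at 234, Asah1 (acid ceramidase) at 217, Ppt1 (palmitoyl-protein thioesterase) at 53.2 and Npc1 at 31.9 CPM. Grn, the precursor of progranulin, was at 1119 CPM.

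Of the membrane proteins, Lamp1 (chr8:13159161-13175338, plus), a main glycoprotein of the lysosomal lining, was at 949 CPM. Laptm5, a haematopoietic membrane protein, was at 498 and Cd68, the macrophage glycoprotein, at 483 CPM. Scarb2, the receptor that carries glucocerebrosidase to the lysosome, was at 130 CPM. Lamp2 and Cd63 (chr10:128900989-128912822, plus), a tetraspanin of late endosomes and granules, were higher in endothelial-like cells, at 418 against 251 CPM and at 328 against 119 CPM. Over the 8 classes of at least 20 cells in fetal IHG, macrophage-like cells held the highest level of 24 of the 28 genes. The exceptions were Ctsl, Lamp2 and Cd63, highest in endothelial-like cells, and Ppt1, highest in B-like cells at 60.3 CPM. The 95% counting intervals of the highest and the next class were apart for 24 of the 28 genes, all but Gaa, Npc1, Ppt1 and Cd63. Macrophage-like cells led in Gaa and Npc1, so their lead in these was not clear of counting error. The share of all genes that were highest in macrophage-like cells is not given here. In fetal Ctrl, where the 6 macrophage-like cells were left out of the ranking of 7 classes, monocyte-like cells were highest for 18 genes and endothelial-like cells for 6.

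**Figure D2:**
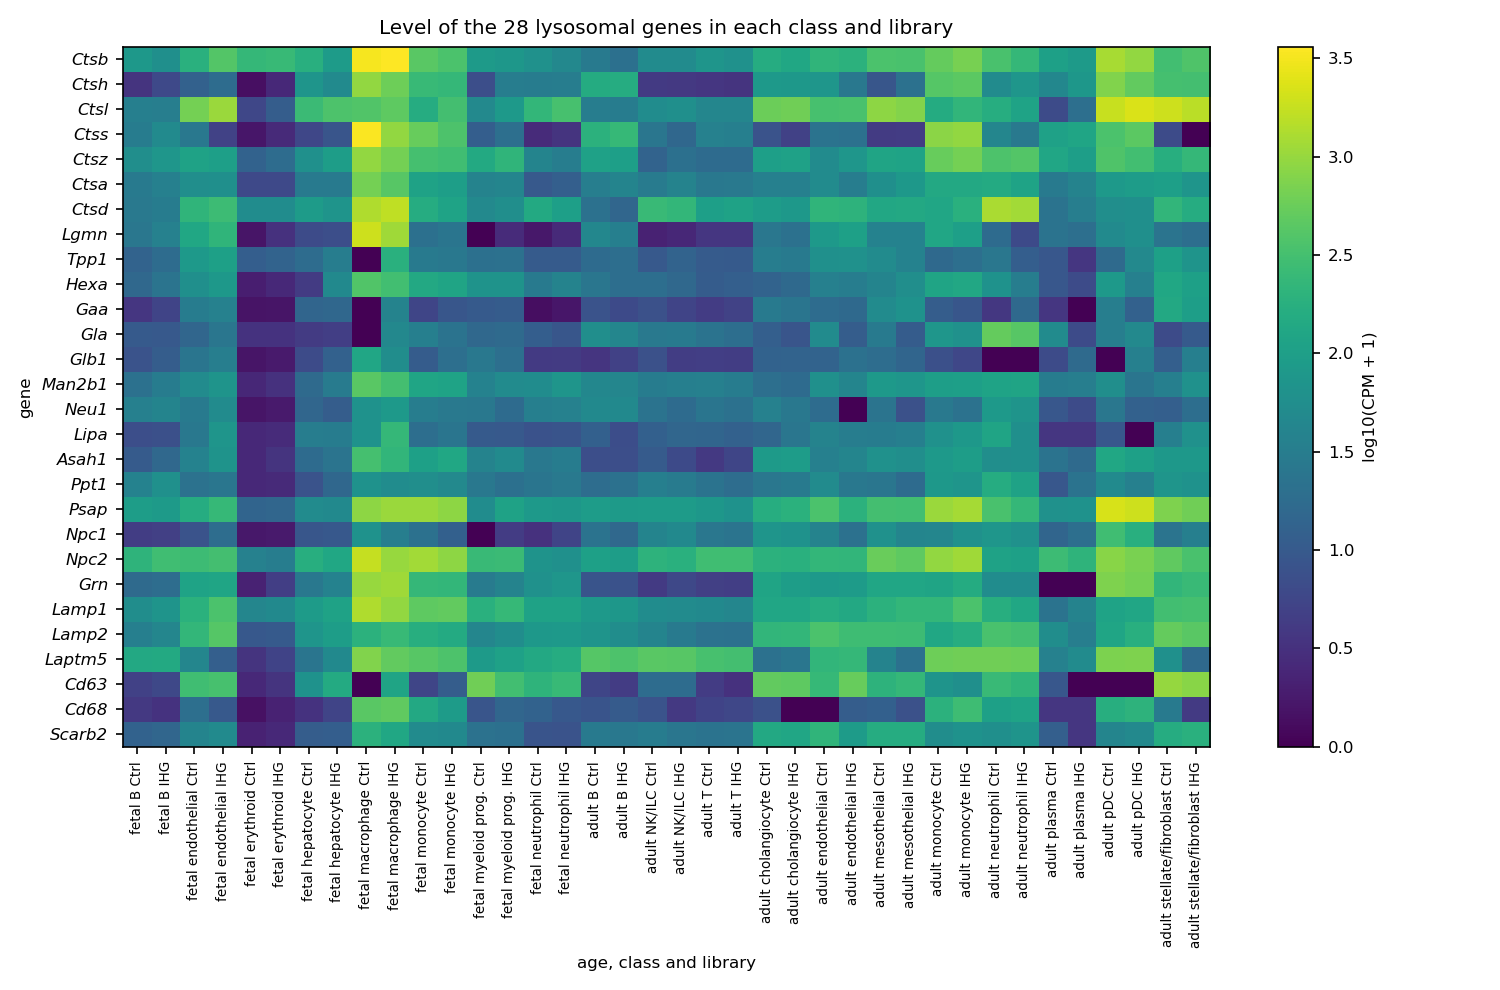
Level of each of the 28 genes (rows) in each class and library (columns, fetal then adult), as log10(CPM + 1) in colour. The fetal macrophage-like IHG column is bright for most rows, with Ctsb at 3606 CPM, and neutrophil-like columns are darker at the fetal than at the adult age.

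Set against neutrophil-like cells of the same fetal IHG library, 26 of the 28 genes were more than 2-fold higher in macrophage-like cells and 1, Cd63, more than 2-fold lower, with a median log2 ratio of 3.98. Of all 10228 genes measured there, 53.6% were more than 2-fold higher and 10.9% more than 2-fold lower, with a median of 1.13. The count of members has to be read against that high background. A few genes, with S100a8 and S100a9 at 104967 and 144927 CPM, take a large part of neutrophil RNA and lower the CPM of the rest. Median-of-ratios scaling, which sets a class's total by its typical gene, moved all genes by 1.25 log2 units here, and the members then had a median of 2.73 with 21 past 2-fold higher, against 23.4% of all genes on that scale. Lgmn was furthest apart, with a log2 ratio of 9.43 (95% counting interval 8.95 to 10.00), followed by Ctss with 8.63, Ctsb with 6.31 (6.21 to 6.41) and Cd68 with 5.84. Ctsl was only 0.50 higher and reversed to -0.75 under the other scaling, and Neu1 and Ppt1 reversed as well. Transcripts of hepatocytes (9 of 9 higher, median 2.32), haemoglobin (5 of 5, 2.97) and immediate-early genes (10 of 10, 3.92) were also higher in macrophage-like cells of fetal IHG, and their part in the lysosomal values was not tested. In fetal Ctrl the median was 3.79 over 27 measured genes, with 25 past 2-fold against 77.1% of all genes, and 1.67 under median-of-ratios scaling. That value rests on 6 cells, and Tpp1, Gla and Cd63 had 0 UMIs in them. The 0.5 added to each sum put Tpp1 and Gla past 2-fold higher all the same, so neither is read as higher. Other genes at 0 UMIs enter the share of all genes in the same way.

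Against monocyte-like cells of fetal IHG, all 28 genes were higher in macrophage-like cells, 20 of them by more than 2-fold, against 16.6% of all genes. The median log2 ratio was 1.43, and that of all genes -0.09. Lgmn (5.59), Ctsd (3.82), Cd63 (3.53), Ctsb (3.37), Lipa (3.33) and Tpp1 (2.80) were furthest apart. Npc2 (0.15), Ppt1 (0.22) and Psap (0.26) differed little between the 2 classes. Against endothelial-like cells 19 genes were more than 2-fold higher and 2 lower (13.8% of all genes were higher and 26.5% lower), and against the mixed hepatocyte-like class 26 were higher (22.8%), with medians of 1.70 and 3.19. Against the finer hepatocyte-like cells alone 23 were more than 2-fold higher (43% of all genes), with a median of 3.10, and against the megakaryocyte-like cells 27 (21.9%), with a median of 3.48.

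Monocyte-like cells in turn exceeded neutrophil-like cells in the fetal libraries, with median log2 ratios of 2.04 in Ctrl and 1.88 in IHG. In Ctrl 23 of 27 measured genes were more than 2-fold higher, against 57.5% of all genes, and in IHG 21 of 28, against 57% of all genes. The medians were 0.80 and 0.67 under median-of-ratios scaling. Ctss separated them most, by 8.24 and 7.25, and Cd63 ran the other way, by -5.40 and -4.59. Cd63 was highest in fetal Ctrl among myeloid progenitor-like cells, at 603 CPM there and at 306 CPM in IHG. In the adult libraries the same comparison gave medians of only -0.08 (Ctrl) and 0.62 (IHG).

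The macrophage-like cells of fetal IHG were not uniform. The finer clustering divided them into 244 cells with a median of 985 UMIs and 102 cells with a median of 11921 UMIs. The 28 genes took 1.27% of UMIs in the shallow and 1.81% in the deep cells. The median log2 ratio of deep over shallow cells was 0.63 over the members and 0.45 over all genes, and 5 members were more than 2-fold higher in the deep cells, against 26.7% of all genes. They were Gla (4.01 to 59.4 CPM, from 2 UMIs in the shallow cells), Npc1 (8.03 to 40.5), Tpp1 (82.3 to 217), Lipa (120 to 274) and Man2b1 (173 to 366). Ctsb went from 2631 to 3958 CPM, Npc2 from 1090 to 975 and Cd68 from 484 to 483. Haemoglobin stood at 155537 CPM in the shallow and 51232 CPM in the deep cells. What part free RNA and depth have in these differences was not tested.

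The first comparison of IHG with Ctrl is in fetal macrophage-like cells, and it is limited by the 6 Ctrl cells with 15594 UMIs. Ctss stood at 3463 CPM in Ctrl (54 UMIs) and 952 CPM in IHG (1789 UMIs), a log2 ratio of -1.88 (-2.25 to -1.44). Lgmn was at 1924 and 1138 CPM (-0.78) and Npc2 at 1731 and 1005 CPM (-0.81). Ctsb was at 3270 and 3606 CPM (0.13) and Ctsd at 1347 and 1640 CPM, so these did not follow Ctss. The median of the 28 genes was -0.50 against -0.68 for all genes, with 3 past 2-fold higher (7.08% of all genes) and 3 lower (37.1%). Tpp1, Gaa, Gla and Cd63 had 0 UMIs in the Ctrl cells, where 3 UMIs would be 192 CPM, and without them the median was -0.60. Of the 3 that counted as higher, Tpp1 and Cd63 had 0 and Lipa 1 Ctrl UMI. Of the 3 lower, Glb1 had 2 and Npc1 1 Ctrl UMIs. The third, Ctss, had 48.1% of its 54 Ctrl UMIs from 1 cell. Monocyte markers stood at 3078 and 1940 CPM and haemoglobin at 37963 and 78886 CPM in the same Ctrl and IHG cells, and their part was not tested.

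Fetal monocyte-like cells (229 Ctrl, 365 IHG) showed lower cathepsin S, Cd68 and cathepsin D and higher cathepsin L in IHG. The median log2 ratio of the 28 genes was -0.16, with 20 lower and 8 higher, while the median of all genes was 0.16. The 95% counting interval lay below 0 for 10 genes and above 0 for 4. The share of all genes with such intervals is not given here, so these counts have no background. By more than 2-fold, 1 gene was higher and none lower, against 4.65% and 2.59% of all genes. That gene was Cd63, with 8 UMIs in Ctrl and 42 in IHG, and it fell short of 2-fold (0.97) under median-of-ratios scaling. That scaling moved all genes by 0.13 and the members' median to -0.28.

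Among the cysteine cathepsins, Ctsl stood at 157 CPM in Ctrl monocyte-like cells and 310 CPM in IHG (275 and 1271 UMIs), a log2 ratio of 0.98 (0.79 to 1.17). Ctss went the other way, from 534 to 367 CPM, a ratio of -0.54 (-0.66 to -0.42). Ctsb was at 449 and 350 CPM (-0.36). The 3 genes thus differed in direction, although all 3 encode cysteine cathepsins. Ctsd was at 158 CPM in Ctrl and 116 in IHG (-0.45). Of the glycosidases, Glb1 was at 9.71 and 19.0 CPM (0.94, 0.20 to 1.82), Gla at 33.1 and 21.5 CPM (-0.63) and Hexa at 139 and 118 CPM (-0.24). Of the lipid-handling genes, Npc2 was at 1140 and 906 CPM (-0.33), Psap at 1067 and 882 CPM (-0.28) and Asah1 at 105 and 130 CPM (0.32, 0.07 to 0.57). Among the membrane proteins, Cd68 was at 138 and 88.6 CPM (-0.64, -0.88 to -0.40) and Laptm5 at 430 and 369 CPM (-0.22). Lamp1 was close to level, at 471 and 511 CPM (0.11, and -0.01 under median-of-ratios scaling).

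Other measures of these cells moved with the same contrast. Haemoglobin stood at 47044 CPM in Ctrl and 13224 CPM in IHG monocyte-like cells. Immediate-early genes, which rise with dissociation and activation, summed to 4908 and 2648 CPM, 10 of 10 lower in IHG (median log2 ratio -1.08). Macrophage markers summed to 82.9 CPM (6 of 13 with a UMI) and 175 CPM (12 of 13), and hepatocyte transcripts to 146 and 272 CPM. Their part in the lysosomal values was not tested. In UMIs summed over a class, a change in its mix of cells and a change within each cell cannot be told apart.

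Of the wider lysosomal genes in these cells, Ctsc, which encodes the dipeptidyl peptidase cathepsin C, stood at 765 CPM in Ctrl and 1174 CPM in IHG (0.62). Slc11a1, a metal transporter of the phagosome membrane, was at 26.3 and 11.2 CPM (-1.23). The lists as wholes moved little, with medians of 0.21 for other proteases (4 of 6 measured genes higher), 0.15 for other glycosidases and sulfatases, -0.13 for lipid, phosphate and nucleic acid enzymes (9 of 12 lower), -0.07 for other membrane proteins and 0.08 for the proton pump that acidifies the lysosome.

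Fetal neutrophil-like cells (1034 Ctrl, 2221 IHG) differed less as a set. The median log2 ratio was 0.07 over 27 measured genes, with 17 higher and 10 lower, against 0.24 for all genes. Median-of-ratios scaling moved all genes by 0.22 and turned the members' median to -0.15. The only gene past 2-fold was Lgmn (1.15, interval -0.03 to 2.79, from 6 and 32 UMIs), which was at 0.93 under that scaling, while 4.7% of all genes were past 2-fold higher and 3.35% lower. Ctsl was again higher in IHG, at 226 CPM in Ctrl and 334 CPM in IHG (0.56, 0.49 to 0.64). Ctsd was at 143 and 101 CPM (-0.50, -0.60 to -0.39) and Ctsb at 62.0 and 45.4 CPM (-0.45), both lower in IHG. Hexa (27.9 and 38.3 CPM, 0.46) and Man2b1 (53.0 and 69.7 CPM, 0.39) were higher. Cd63 (205 and 250 CPM, 0.28), Grn (61.4 and 72.7 CPM, 0.24) and Laptm5 (141 and 157 CPM, 0.16) were higher by their CPM only, with 0.06, 0.02 and -0.07 under median-of-ratios scaling. Lamp1 was at 111 CPM in both libraries. No single cell gave more than 1.42% of the Ctsl UMIs in either library. Haemoglobin stood at 31111 and 10078 CPM, hepatocyte transcripts at 70.0 and 211 CPM and immediate-early genes at 853 and 726 CPM, and their part was not tested.

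**Figure D3:**
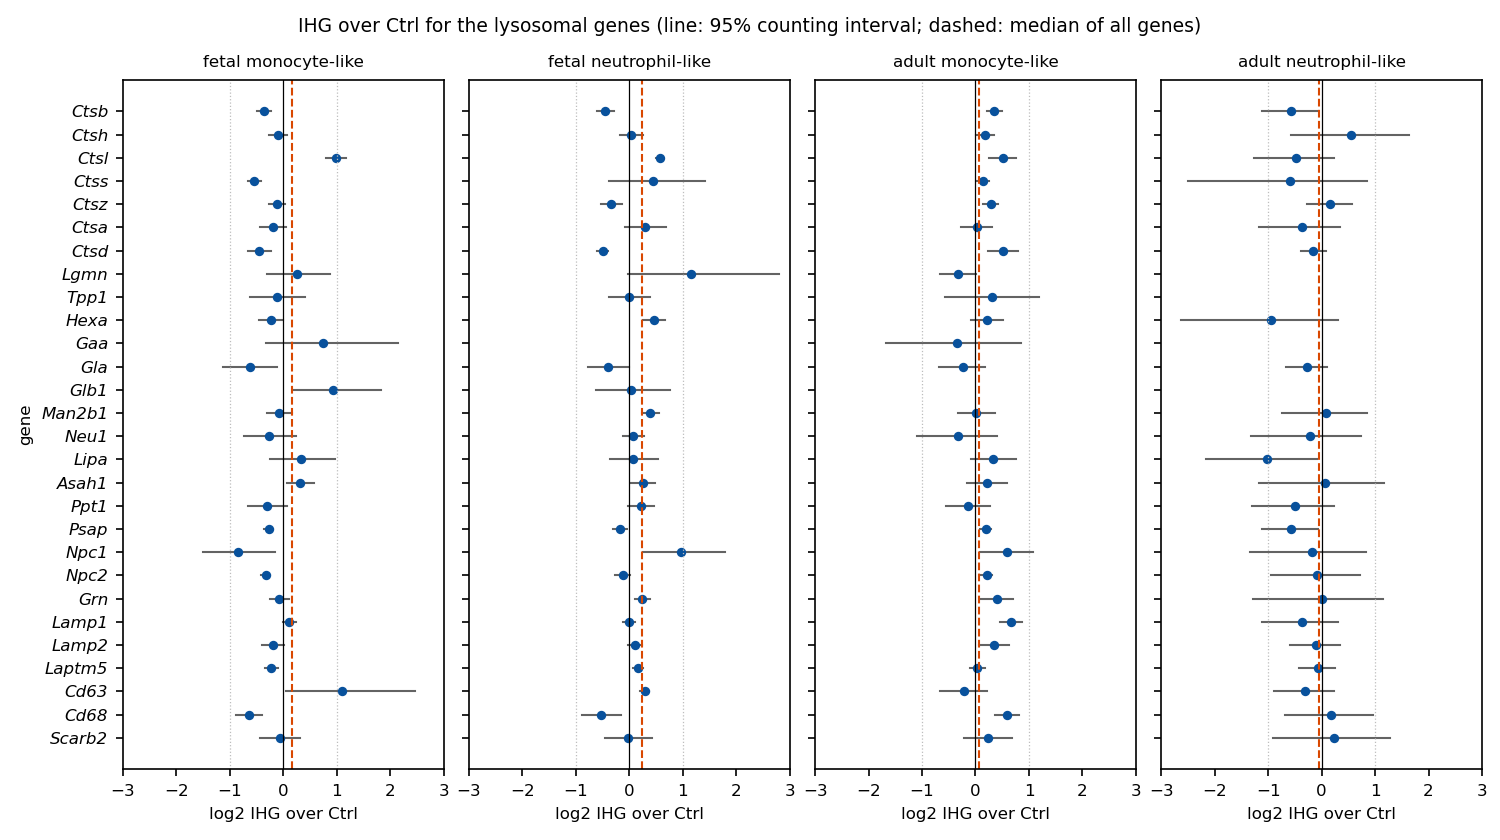
Log2 ratio of IHG over Ctrl (x axis) for each measured gene (rows) in fetal and adult monocyte-like and neutrophil-like cells; points are ratios of CPM, lines their 95% counting intervals, dashed lines the median of all genes, dotted lines 2-fold. Ctsl is right of 0 in both fetal panels (0.98 and 0.56), and most adult monocyte-like points lie right of 0 (21 of 27).

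The cathepsin L difference of fetal neutrophil-like cells lay in some of their clusters and not in others. The clusters were led by Chil3, Camp and Fcnb (224 Ctrl and 619 IHG cells), by Ltf, Ifitm6 and Lcn2 (232 and 658), by Retnlg, Mmp8 and Mmp9 (396 and 723) and by Cxcl2, Il1b and Acod1 (163 and 220). A further one of 19 and 1 cells is not described. Camp, Ltf and Mmp9 encode granule proteins of developing neutrophils, and Cxcl2 and Il1b encode inflammatory mediators. In the Chil3 and Camp cluster Ctsl stood at 51.3 CPM in Ctrl and 51.5 in IHG (0.00, -0.26 to 0.28). In the Ltf and Ifitm6 cluster it stood at 124 and 129 CPM (0.06, -0.16 to 0.27). In the Retnlg and Mmp8 cluster it stood at 323 and 714 CPM (858 and 3437 UMIs), a log2 ratio of 1.14 (1.04 to 1.25). In the Cxcl2 and Il1b cluster it stood at 913 and 2093 CPM (696 and 1999 UMIs), a ratio of 1.20 (1.07 to 1.32). Ctsl was thus more than 2-fold higher in IHG in the latter pair of clusters, and level in the former pair. Under median-of-ratios scaling the 4 ratios were -0.14, -0.14, 0.96 and 1.00, the last 2 just short of 2-fold.

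The same clusters differed in the other genes too. The share of UMIs from the 28 genes was 0.117% and 0.113% (Ctrl and IHG) in the Chil3 and Camp cluster, 0.132% and 0.135% in the Ltf and Ifitm6 cluster, 0.166% and 0.226% in the Retnlg and Mmp8 cluster and 0.264% and 0.424% in the Cxcl2 and Il1b cluster. Ctsd stood at 79.8 and 45.8 CPM (-0.80), 132 and 77.2 CPM (-0.78), 175 and 173 CPM, and 341 and 371 CPM in that order. Its lower level in IHG was therefore seen where Ctsl was level, and not where Ctsl was higher. Psap stood at 43.6 and 39.8, 72.4 and 65.2, 111 and 122, and 192 and 190 CPM. Laptm5 stood at 87.1 and 93.7, 156 and 167, 179 and 227, and 211 and 306 CPM. Cd63 ran against the others, from 265 and 262 CPM in the Chil3 and Camp cluster to 135 and 200 CPM in the Cxcl2 and Il1b cluster. Lamp1 also went down, from 128 and 127 to 90.5 and 88.0 CPM.

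Between the Cxcl2 and Il1b and the Chil3 and Camp cluster, 11 of 23 measured genes were more than 2-fold higher in Ctrl, against 19.7% of all genes, with a median of 0.78. In IHG 15 of 25 were, against 21.9%, with a median of 1.10. Under median-of-ratios scaling the medians were 0.22 and 0.46, with 6 and 10 genes past 2-fold, against 11.8% and 12.3% of all genes. The IHG over Ctrl medians within clusters were -0.02 (Chil3 and Camp), 0.02 (Ltf and Ifitm6), 0.33 (Retnlg and Mmp8) and 0.25 (Cxcl2 and Il1b), against 0.17, 0.24, 0.20 and 0.25 for all genes. More than 2-fold higher were none in the first (4.07% of all genes), none in the second (6.66%), Ctsl and Npc1 in the third (5.59%; Npc1 from 8 and 40 UMIs) and Ctsl, Ctsa, Hexa and Gla in the fourth (8.32%; each short of 2-fold under median-of-ratios scaling). Gla was more than 2-fold lower in the Ltf and Ifitm6 cluster, against 2.24% of all genes.

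Macrophage markers stood at 31.1 and 51.9, 31.5 and 75.9, 40.3 and 96.2, and 69.5 and 168 CPM in the 4 clusters, higher in IHG in each. Hepatocyte transcripts stood at 77.2 and 272 CPM in the Retnlg and Mmp8 cluster and at 106 and 482 CPM in the Cxcl2 and Il1b cluster. Immediate-early genes were close in the latter, at 1921 and 2055 CPM. The part of these transcripts in the values of Ctsl and the other genes was not tested.

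**Figure D4:**
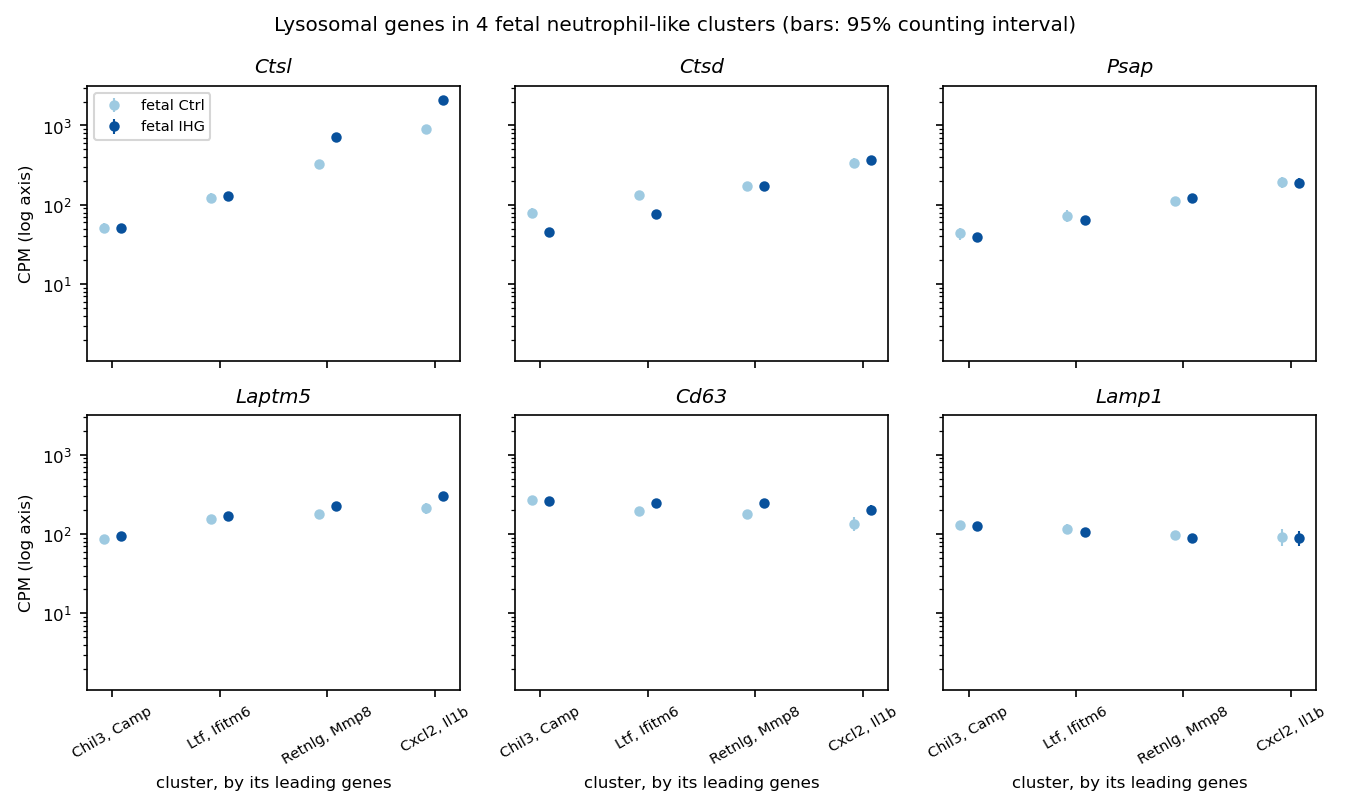
CPM (y axis, log axis) of Ctsl, Ctsd, Psap, Laptm5, Cd63 and Lamp1 in the 4 large fetal neutrophil-like clusters (x axis, named by leading genes), Ctrl light and IHG dark; bars are 95% counting intervals. Ctsl points overlap in the first 2 clusters and are apart in the last 2 (323 against 714 CPM and 913 against 2093 CPM), whereas Ctsd is apart in the first 2 only.

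Across the fetal classes Ctsl was higher in IHG in 7 of 8. Besides the monocyte-like and neutrophil-like cells, it stood at 645 CPM in Ctrl and 1067 CPM in IHG endothelial-like cells (0.73). It stood at 262 and 369 CPM in the mixed hepatocyte-like class (0.49), at 46.9 and 79.9 CPM in myeloid progenitor-like cells (0.75) and at 4.78 and 10.2 CPM in erythroid-like cells (1.09). In macrophage-like cells it was at 385 CPM from 6 UMIs and at 471 CPM. B-like cells were the exception, at 32.9 and 32.0 CPM (-0.04). The signs were the same under median-of-ratios scaling. In the finer clustering Ctsl stood at 374 and 750 CPM in hepatocyte-like cells (1.00, 0.81 to 1.20) and at 70.2 and 73.8 CPM in megakaryocyte-like cells (0.06, -0.51 to 0.68). It stood at 616 and 1117 CPM in the finer endothelial-like cells (0.86) and at 726 and 849 CPM in stellate or fibroblast-like cells (0.22, -0.15 to 0.61).

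In fetal erythroid-like cells 6 of the genes were more than 2-fold higher in IHG, against 5.33% of all genes: Lgmn (1.94), Ctsh (1.87), Grn (1.54), Cd68 (1.35), Ctss (1.30) and Ctsl (1.09). The median over the members was 0.45 and that of all genes 0.19. Macrophage markers went from 6.24 to 38.4 CPM in the same cells, and the part of free macrophage RNA was not tested. Medians in the other fetal classes were 0.35 in B-like (all genes 0.22), 0.40 in endothelial-like (0.19), 0.34 in hepatocyte-like (0.42) and 0.15 in myeloid progenitor-like cells (0.22). Ctsh was the 1 gene past 2-fold in B-like cells (1.05, against 4.67% of all genes).

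Single genes in the other fetal classes were further apart than the medians. In the mixed hepatocyte-like class 4 genes were more than 2-fold higher in IHG, against 19.8% of all genes. Hexa stood at 3.15 CPM in Ctrl and 48.1 CPM in IHG from 4 and 119 UMIs, a log2 ratio of 3.77 (2.54 to 5.83), and Cd63 stood at 64.5 and 147 CPM (1.18, 0.84 to 1.55). Laptm5 (1.03) and Glb1 (1.02) were just past 2-fold and fell short of it under median-of-ratios scaling, at 0.74 and 0.72. Megakaryocyte-like cells held more of the UMIs of this class in IHG than in Ctrl, and their part in these values was not tested. In the finer hepatocyte-like cells 1 of 21 measured genes, Ctsl, was just past 2-fold higher (8.5% of all genes), Cd63 stood at 74.7 and 115 CPM (0.61, 0.16 to 1.09), and Hexa had 0 and 16 UMIs. In all finer megakaryocyte-like cells (54 Ctrl, 178 IHG) 8 of 20 measured genes were more than 2-fold higher, against 27.1% of all genes, among them Hexa, at 8.51 and 73.8 CPM from 4 and 103 UMIs (2.95, 1.72 to 5.02), and Cd63, at 46.8 and 172 CPM (1.85, 1.25 to 2.58). Ctsb was lower there, at 140 and 39.4 CPM (-1.83, -2.38 to -1.29). Median depth of the megakaryocyte-like cells was 3946 UMIs in Ctrl and 1090 in IHG.

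In the endothelial-like class Ctsb, at 182 and 396 CPM (1.11, 0.78 to 1.48), Lipa, at 25.7 and 71.2 CPM (1.41), and Npc1, from 3 and 26 UMIs, were more than 2-fold higher, against 11.6% of all genes. Laptm5 (18 and 16 UMIs) and Cd68 (8 and 13 UMIs) were more than 2-fold lower there, against 4.54%. Macrophage markers in endothelial-like cells stood at 404 CPM in Ctrl and 1092 CPM in IHG, and their part in the Ctsb and Lipa values was not tested. In the finer endothelial-like cells, without the stellate or fibroblast-like ones, Ctsb stood at 199 and 438 CPM (1.13) and Lipa at 31.6 and 81.4 CPM (1.30). There 4 genes were past 2-fold higher (14.7% of all genes) and 1 lower (5.75%). In myeloid progenitor-like cells Ctsh (4 and 175 UMIs, 2.18) and Psap (52.9 and 110 CPM, 1.04) were more than 2-fold higher, against 11.9% of all genes.

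In the adult libraries monocyte-like cells (297 Ctrl, 261 IHG) had 21 of 27 measured genes higher in IHG and 6 lower, with a median log2 ratio of 0.21 against 0.07 for all genes. None was past 2-fold, where 3.08% of all genes were higher and 2.5% lower. The interval lay above 0 for 13 genes and below 0 for none, again with no share of all genes to read this against. Lamp1 stood at 226 and 359 CPM (0.66, 0.46 to 0.87), Cd68 at 190 and 284 CPM (0.58) and Npc1 at 42.0 and 62.9 CPM (0.58). Of the cathepsins, Ctsl stood at 153 and 218 CPM (0.51), Ctsd at 127 and 182 CPM (0.51), Ctsb at 522 and 666 CPM (0.35, 0.21 to 0.49) and Ctss at 863 and 953 CPM (0.14). Psap stood at 1040 and 1187 CPM (0.19) and Laptm5 at 591 and 603 CPM. The difference from the fetal monocyte-like cells was not tested.

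This adult class, led by Lyz2, Chil3 and Cd209a, was a mixture. Monocyte markers summed to 2139 CPM in Ctrl and 2964 in IHG, and dendritic markers to 1134 and 761 CPM. The finer clustering moved most of it to monocyte-like cells (88 Ctrl, 117 IHG) and dendritic-like cells (168 and 86). The 28 genes took 1.06% and 1.08% of UMIs in the former and 0.540% and 0.557% in the latter. Within the finer monocyte-like cells the median of IHG over Ctrl was 0.00, with Ctss at 1373 and 1283 CPM, Ctsb at 1138 and 1103, Ctsd at 340 and 338, Psap at 1592 and 1612, Lamp1 at 514 and 621 and Cd68 at 300 and 411 CPM. Within the dendritic-like cells it was -0.03, with Ctsb at 270 and 242 CPM and Lamp1 at 111 and 112 CPM. The median was thus close to level within each finer class, although single genes such as Cd68 differed. The proportion of the finer classes differed between the libraries, and 41 Ctrl and 58 IHG cells became unnamed. What part this mix has in the values of the whole class was not tested.

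Adult neutrophil-like cells (189 Ctrl, 107 IHG) had 17 of 24 measured genes lower in IHG and 7 higher, with a median of -0.20 against -0.06 for all genes. The interval lay below 0 for 3 genes, also without a share of all genes. Lipa, at 120 and 57.5 CPM from 43 and 11 UMIs (-1.01, -2.17 to -0.08), was the 1 gene past 2-fold lower, against 6.5% of all genes, and none was past 2-fold higher (2.17%). Ctsb stood at 346 and 230 CPM (-0.58, -1.12 to -0.08) and Psap at 343 and 230 CPM (-0.57, -1.11 to -0.07). Ctsd, at 1284 and 1155 CPM (-0.15), and Gla, at 514 and 423 CPM (-0.27), differed less. Ctsz was at 366 and 407 CPM (0.16). Glb1 had 0 UMIs in both libraries, where 3 UMIs would be 8.37 and 15.7 CPM. Medians of the other adult classes lay between -0.21 (stellate or fibroblast-like) and 0.11 (plasma-like).

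Adult endothelial-like cells (61 Ctrl, 46 IHG) had 3 genes past 2-fold among 16 measured, with a median of -0.06. Cd63 stood at 238 CPM in Ctrl and 529 CPM in IHG, from 56 and 103 UMIs, a log2 ratio of 1.14 (0.66 to 1.64), and was the 1 gene past 2-fold higher, against 5.24% of all genes. Scarb2 stood at 209 and 87.2 CPM, from 49 and 17 UMIs (-1.23, -2.15 to -0.44), and Ctsh at 72.4 and 25.7 CPM, from 17 and 5 UMIs, and these 2 were past 2-fold lower, against 6.39%. The tetraspanin was thus higher and the glucocerebrosidase receptor lower in the same cells.

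Between the ages, the 28 genes differed by CPM most in neutrophil-like cells, more than in monocyte-like or B-like cells. In IHG the order over monocyte-like cells did not hold under median-of-ratios scaling. The neutrophil-like median was then 0.32, and the monocyte-like median was at least 0.44 under every setting. By CPM, 23 of 26 measured genes were higher in adult Ctrl neutrophil-like cells and 19 were more than 2-fold higher, against 38.1% of all genes. The median log2 ratio was 2.09 against 0.58. In IHG, 22 of 27 were higher and 16 more than 2-fold higher, against 36.3%, with a median of 1.90 against 0.48. Ages were compared separately within Ctrl and within IHG. Past 2-fold lower were Glb1 in Ctrl (17% of all genes) and Ctsl in IHG (18.7%). Glb1 had 0 adult UMIs and its fetal 3.09 CPM lies below the 8.37 CPM of 3 adult UMIs, so its ratio is not read. Without Glb1 the medians were 2.13 and 1.91.

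Alpha-galactosidase A was the furthest apart. Gla (chrX:134588149-134601125, minus, the gene with 2 palindromes above) stood at 10.4 CPM in fetal and 514 CPM in adult Ctrl neutrophil-like cells, a log2 ratio of 5.62 (5.3 to 6.0). In IHG it stood at 7.92 and 423 CPM (5.74). Npc1, the cholesterol exporter, stood at 2.17 and 72.6 CPM in Ctrl (5.05) and 4.31 and 62.7 CPM in IHG (3.91). Lipa stood at 6.97 and 120 CPM (4.11) and at 7.36 and 57.5 CPM (3.02). For each of these genes both adult levels were above both fetal ones.

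Of the proteases, Ctsd stood at 143 fetal and 1284 adult CPM in Ctrl (3.17) and at 101 and 1155 CPM in IHG (3.51). Ctsa stood at 8.92 and 151 CPM (4.08) and at 10.9 and 115 CPM (3.43), and Ctsz at 38.9 and 366 CPM (3.24) and at 30.7 and 407 CPM (3.74). Ctsl was the exception, lower in the adult at 226 and 162 CPM in Ctrl (-0.47) and at 334 and 115 CPM in IHG (-1.51). Of the membrane proteins, Cd68 stood at 12.1 and 103 CPM (3.10) and at 8.43 and 115 CPM (3.80), Laptm5 at 141 and 617 CPM (2.13) and at 157 and 585 CPM (1.90), and Lamp2 at 76.9 and 340 CPM (2.15) and at 83.1 and 313 CPM (1.93). Lamp1 differed less, at 111 and 170 CPM (0.63) and at 111 and 131 CPM (0.27). Cd63 had no common direction, at 205 and 260 CPM (0.35) in Ctrl and 250 and 209 CPM (-0.24) in IHG, and Grn was lower in both (-0.18 and -0.41).

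**Figure D5:**
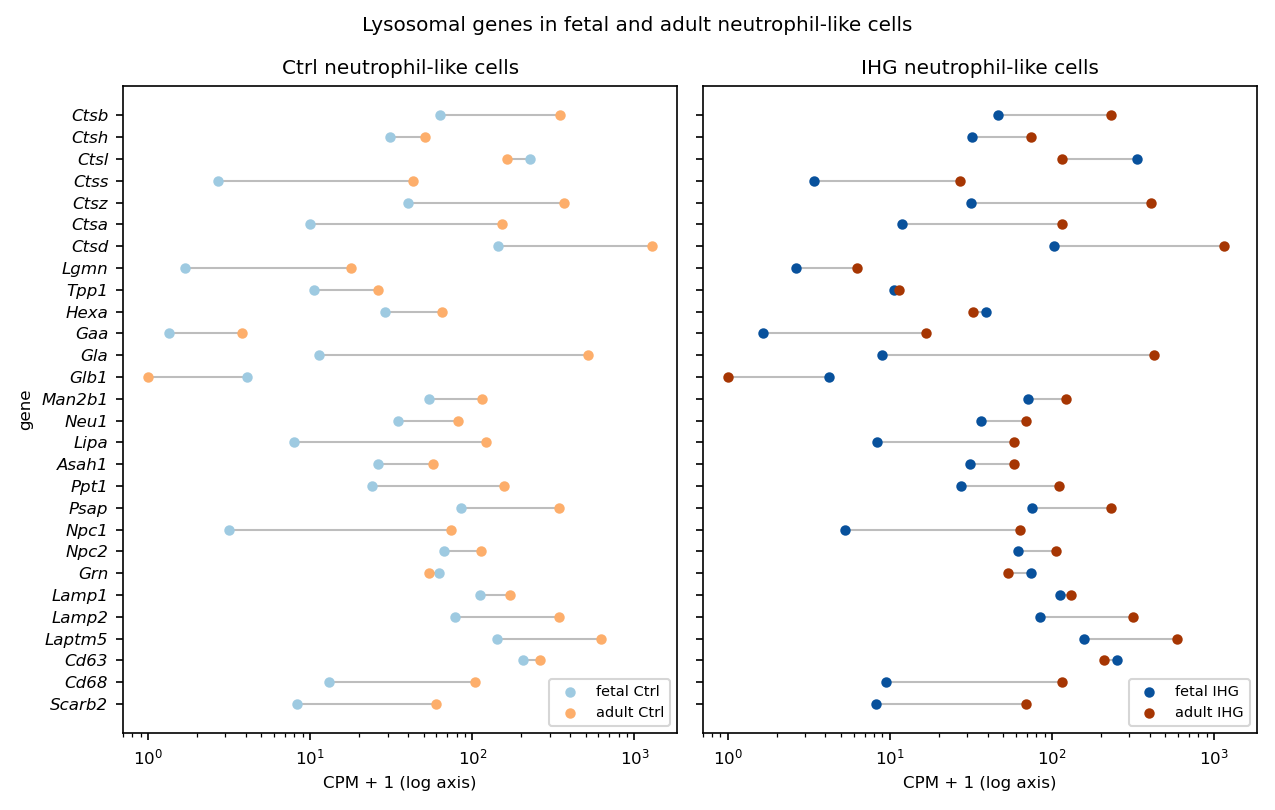
CPM + 1 (x axis, log axis) of each of the 28 genes (rows) in fetal (blue) and adult (orange) neutrophil-like cells, Ctrl left and IHG right; a grey line joins the ages. Adult points lie right of fetal points for most rows, with the longest line for Gla (10.4 to 514 CPM in Ctrl, 7.92 to 423 in IHG), and Ctsl runs the other way.

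The scale matters for this comparison. The 12 neutrophil markers, S100a8 and S100a9 foremost, summed to 376124 and 353691 CPM in fetal and 145876 and 148742 CPM in adult neutrophil-like cells (Ctrl and IHG). Median-of-ratios scaling moved all genes by 1.53 (Ctrl) and 1.58 (IHG). The members' medians were then 0.56 and 0.32, with 10 genes past 2-fold higher and 4 lower in Ctrl and 9 and 7 in IHG. On that scale 10.9% of all genes were past 2-fold higher and 48.4% lower in Ctrl, and 10.8% and 53.1% in IHG. Gla remained 4.09 and 4.16 higher on that scale. That shift is the median over genes with at least 20 UMIs at each age, so a CPM ratio near it is close to that of other well-counted genes. Against the fetal Cxcl2 and Il1b cluster alone, a comparison added after the data were seen, the medians by CPM were 1.67 in Ctrl (14 genes past 2-fold higher, 43.2% of all genes) and 0.85 in IHG (10 genes, 28.7%).

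The ages also differed in ways that the lysosomal values share. Median depth was 7184 and 7986 UMIs in fetal and 1710 and 1734 in adult neutrophil-like cells, adult livers were perfused, and all 10 of 10 immediate-early genes were higher in the adult, with medians of 3.98 (Ctrl) and 4.41 (IHG). Haemoglobin went from 31111 and 10078 CPM to 0 and 5.22 CPM. These differences cannot be told apart from age here. Among cathepsin inhibitors, Stfa1, a stefin with near-identical copies whose counts are uncertain, stood at 67123 and 64249 CPM in fetal and 61.4 and 73.1 CPM in adult cells. Cstb, cystatin B, went from 44.1 to 1881 CPM in Ctrl and from 34.1 to 1849 CPM in IHG.

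The wider lysosomal lists were mixed by CPM in these neutrophil-like cells. Other proteases had medians of 0.70 in Ctrl and -0.13 in IHG (4 of 6 measured genes lower) and other membrane proteins 0.45 and 0.48, near or below the 0.58 and 0.48 of all genes. Other glycosidases and sulfatases had 0.94 and 1.26, lipid, phosphate and nucleic acid enzymes 0.93 and 1.37, and MiT factors and partners 2.19 (5 of 5 higher) and 1.96 (6 of 6). Subunits of the proton pump were higher in the adult in 14 of 15 measured genes in Ctrl and 15 of 15 in IHG, with 11 and 9 past 2-fold and medians of 1.30 and 1.17, below the scaling shift. Gm2a, an activator of ganglioside breakdown, stood at 11.1 and 321 CPM in Ctrl (4.85) and 14.3 and 366 CPM in IHG (4.68). Slc11a1 stood at 8.34 and 165 CPM (4.30) and at 8.07 and 136 CPM (4.10), and Hgsnat, the lysosomal acetyltransferase of heparan sulfate breakdown, at 14.0 and 173 CPM (3.64) and 25.5 and 240 CPM (3.25).

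B-like cells, numerous at both ages, had smaller and mixed differences. The medians of adult over fetal were 0.64 in Ctrl (10 genes past 2-fold higher, 21.6% of all genes) and 0.11 in IHG (6 genes, 18.7%). Ctsh stood at 2.47 and 152 CPM (5.93) and at 5.11 and 159 CPM (4.94). Ctss, which acts in MHC class II presentation, stood at 30.3 and 193 CPM (2.67) and at 48.7 and 243 CPM (2.32), and Laptm5, a regulator of lymphocyte receptors, at 141 and 421 CPM (1.58) and at 144 and 365 CPM (1.34). Gla was higher here too, at 9.09 and 55.7 CPM (2.61) and at 8.88 and 41.9 CPM (2.23). Ctsb was lower in the adult, at 77.4 and 27.8 CPM (-1.47) and 57.7 and 19.3 CPM (-1.58), as was Npc2, at 207 and 103 CPM (-1.01) and 287 and 94.7 CPM (-1.60). The fetal class included a cluster led by Vpreb1, Igll1 and Vpreb2, with Rag1 also among its leading genes. An adult cluster had Ighd and H2-Ob among its own. The stage of the B-like cells and age cannot be told apart here.

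In monocyte-like cells the adult over fetal medians were 0.17 in Ctrl and 0.47 in IHG, against -0.32 and -0.47 for all genes, with 6 and 8 genes past 2-fold higher (12% and 11.5% of all genes). Cd63 stood at 4.57 fetal and 68.7 adult CPM in Ctrl (3.83) and at 10.3 and 58.9 CPM in IHG (2.52). Its fetal values rest on 8 (Ctrl) and 42 (IHG) UMIs. In the adult it was found in 13.1% (Ctrl) and 11.9% (IHG) of cells, with 14.8% and 18.7% of its UMIs from a single cell. Lgmn stood at 19.4 and 126 CPM (2.68) and at 23.4 and 101 CPM (2.10). Lamp1 was lower in the adult class as a whole, at 471 and 226 CPM (-1.06) and at 511 and 359 CPM (-0.51). In the finer adult monocyte-like cells, however, it stood at 514 CPM (Ctrl) and 621 CPM (IHG), not below those fetal levels. In the finer adult dendritic-like cells it stood at 111 and 112 CPM. The adult class holds dendritic-like cells too, as described above.

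Some adult classes other than the monocyte-like and neutrophil-like cells also held high levels. Plasmacytoid dendritic-like cells were highest of 11 classes for 7 genes in Ctrl and 9 in IHG, with Psap at 2215 and 1952 CPM, Ctsl at 1809 and 2241, Ctsb at 1249 and 959, Ctsh at 763 and 497 and Grn at 730 and 647 CPM. Cd63 had 0 UMIs in them, where 3 UMIs would be 24.3 CPM in Ctrl and 34.7 CPM in IHG. Stellate or fibroblast-like cells were highest for 7 and 5 genes, with Ctsl at 1915 and 1568 CPM, Cd63 at 994 and 830 and Lamp2 at 519 and 437 CPM. The order of these 2 classes for Ctsl differed between the libraries. Counting intervals of the highest and the next class overlapped for Lamp2 in both libraries, Ctsl in Ctrl and Ctsh in IHG, among others. The share of all genes that were highest in these classes is not given here, so the counts have no background.

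Finally, other lysosomal genes were set beside the 28 in the fetal IHG library, for macrophage-like over neutrophil-like cells, where 53.6% of all genes were past 2-fold higher. The median log2 ratio was 4.30 for other proteases (6 of 8 measured genes past 2-fold higher), 2.81 for other glycosidases and sulfatases (14 of 18), 2.39 for lipid, phosphate and nucleic acid enzymes (9 of 12), 1.82 for other membrane proteins (9 of 14) and 1.72 for sorting receptors (6 of 8). The proton pump had 0.88 (7 of 15), below the 1.13 of all genes. Acp5, an acid phosphatase of macrophages and osteoclasts, stood at 655 CPM against 5.99, and Ctsc at 985 against 33.8 CPM. Acp5 was also among the leading genes of some fetal erythroid-like clusters. Haemoglobin stood at 78886 CPM in the macrophage-like and 10078 CPM in the neutrophil-like cells, and the part of erythroid RNA in the Acp5 value was not tested. The cathepsin inhibitors had a median of -4.32, with 4 past 2-fold lower and 3 higher, Stfa1 standing at 926 CPM in macrophage-like and 64249 CPM in neutrophil-like cells. The MiT factors and their partners had 2.37 (6 of 7), with Tfec at 54.8 against 1.42 CPM.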

How the data were processed

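Single-cell RNA of 4 pooled liver libraries was analysed. The deposited matrices hold raw UMI counts per gene and cell, and per the file headers they were written by Cell Ranger 5.0.0. The submitters' processing notes list mm10, Cell Ranger and Seurat, the last with no step given. Cells needed 300 genes or more and mitochondrial UMIs of no more than 25%. Doublets were scored with Scrublet in scanpy 1.11.5; its own threshold removed 128 and 270 fetal cells, but marked 1 cell in each adult library, so the highest-scoring cells above the 95th percentile were removed there (241 and 329). Both libraries of one age entered one clustering, with no integration (counts scaled to 10000 per cell, 2000 variable genes without the 28 genes, other lysosomal, mitochondrial or ribosomal genes, 30 principal components, 15 neighbours, Leiden resolution 1, leidenalg 0.10.2). Clusters were named from 19 class lists of 169 markers; the rule for ties between classes was set after the clusters were seen. Names may therefore differ from the study's own.

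For each class of a library the UMIs were added up, and a log2 ratio of CPM was computed with 0.5 added to each sum (numpy 2.4.6, pandas 2.3.3), with exact conditional Poisson 95% intervals (scipy 1.17.1). A gene was measured with at least 20 UMIs over both sums; called means past 2-fold. Classes were ranked with at least 20 cells. The limit that a count of 0 allows is 3 counts. Intervals and limits cover counting error only. The calculation was tested on simulated data. All of the 28 genes could be named; of 8 wider lists (94 genes) up to 4 genes with at least 50 UMIs and the largest ratio in the class described. The members and lists were chosen with earlier results of these data known. Results were recomputed under 11 other settings; further ones for haemoglobin and single fetal neutrophil-like clusters, and the cluster and finer-resolution comparisons in the text, were added after the data were seen. Promoters came from RefSeq (250 bases before to 50 after the start).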

Additional observations from a re-analysis of the deposited data

How the results depend on the processing

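No paired analysis was possible because each group is 1 library. No value could be computed for adult macrophage-like cells under any setting, for want of such a class, or for the fetal Ctrl macrophage-like cells with each library clustered by itself. Over the comparison medians and class counts, 133 alternative values stayed within the limits set for them and 21 moved. Of single genes, 1323 values stayed, 122 moved and 1 was counted as reversed. This was Lipa, IHG over Ctrl in fetal macrophage-like cells. It was 1.28 and became -0.69 with each cell thinned to 1000 UMIs, from 1 Ctrl UMI. That count leaves out sign changes given above under median-of-ratios scaling. Ctsl, Neu1 and Ppt1 in macrophage-like over neutrophil-like cells of fetal IHG are among these. Medians for IHG over Ctrl were below 0 under all 12 settings in fetal monocyte-like cells (-0.32 to -0.09) and all 11 in adult neutrophil-like cells (-0.28 to -0.18). Under median-of-ratios scaling, fetal neutrophil-like cells turned to -0.15, macrophage-like over neutrophil-like cells were 1.67 (fetal Ctrl) and 2.73 (fetal IHG), and adult over fetal neutrophil-like cells were 0.56 (Ctrl) and 0.32 (IHG). Adult monocyte-like cells turned to -0.47 with each library clustered by itself. Macrophage-like over neutrophil-like cells in fetal IHG were 3.79 with doublets kept, 3.48 thinned and 4.35 without haemoglobin, mitochondrial and ribosomal genes in the total. Adult over fetal monocyte-like cells in Ctrl were 0.69 at resolution 2, 0.68 with each library by itself, 0.59 at no more than 10% mitochondrial UMIs and 0.80 with lysosomal genes allowed in the clustering; in IHG they were 0.84, 0.85 and 0.80 at resolution 2, 10% mitochondrial UMIs and lysosomal genes allowed. Adult over fetal neutrophil-like cells in IHG were 0.85 against the fetal Cxcl2 and Il1b cluster only, an alternative added after the data were seen. The number of other fetal classes with the member median above that of all genes was 3 and became 5 at resolution 2; of other adult classes it was 2 and became 0 with each library by itself, 1 thinned and 1 with genes counted from 5 UMIs. The cause was not tested for these. Leaving out cells of over 10% haemoglobin UMIs moved none. The sums behind a class limit its values: the 6 Ctrl macrophage-like cells held 15594 UMIs and the adult neutrophil-like cells 358310 and 191419.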
